A study of Mus musculus with 27 samples.

Results

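The regions described here were open in mouse cardiac fibroblasts and had lost most of their ATAC-seq signal in cells given a single one of the cardiac transcription factors Gata4 (G), Mef2c (M) and Tbx5 (T), while cells given either of the other 2 factors alone stayed near the control. They were chosen by measured values. Counts of each library were divided by the library's total and put on the usual per-library scale (CPM), the 3 replicates of a group were averaged, and 5 CPM was added. A region was taken where the control mean was at least 30 CPM, exactly 1 of the 3 single-factor values was 0.45 of the control value or less, and the other 2 lay between 0.75 and about 1.7 of it. Of 30815 regions, 7440 had the required control level and 191 met the whole rule. Gata4 was the closing factor for 16 of the 191, Mef2c for 43 and Tbx5 for 132.

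ATAC-seq uses a transposase that cuts and tags DNA not covered by nucleosomes, so the count of a region measures how accessible its chromatin is. Gata4 is a zinc-finger factor, Mef2c a MADS-box factor and Tbx5 a T-box factor. All are needed for normal heart development, and given together by retrovirus they turn a part of cardiac fibroblasts towards a cardiomyocyte-like state, in which fibroblast regulatory regions lose accessibility while cardiac ones gain it. "Closed" is used below as a name for a low count.

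Cells were neonatal heart fibroblasts of strain Cd-1 with the alpha-MHC-GFP genotype, kept as a line by large T antigen and harvested unsorted at day 2, so that infected and uninfected cells of a culture were measured together. The tested groups were G, M and T alone, the pairs GM (Gata4 with Mef2c), GT (Gata4 with Tbx5) and MT (Mef2c with Tbx5), and GMT (all 3), and all 7 were cultured with sb431542, which inhibits Tgfβ signalling, and xav939, which inhibits Wnt signalling. The control cells carried retroviral dsRed, a fluorescent protein, and had no inhibitors. A factor's effect and the inhibitors' effect can therefore not be told apart in any ratio to the control, although the rule kept 2 groups with the inhibitors near the control at every region. Another 3 samples, dsRed cells with the inhibitors, were not analysed here. Each group had 3 biological replicates per the labels.

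The 24 libraries had totals of 241394 counts (GMT replicate 1, the shallowest) to 1704896 counts (MT replicate 1, the deepest), around a median of 661976, so that 30 CPM stood for 7.2 to 51.1 counts. The precision of single values is therefore limited by counting. GT replicate 1 stood apart. Over 21936 regions its mean Spearman correlation was 0.884 with the G libraries and 0.722 with the other GT libraries. GMT replicate 1 had a mean of 0.773 with the MT libraries, 0.748 with the control libraries and 0.713 with the other GMT libraries. Counts of calls and medians from the tests are given with and without them where they move. Coordinates are of build mm9, with no gene assigned and no sequence shown, and the fibroblast label was not checked against marker genes.

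The values that chose the regions are a description only. Over the 16 regions closed by Gata4, the median of the group means was 16.8 CPM in G cells, against 53.2 CPM in control cells, and the median ratio of the 2 values with 5 CPM added was 0.37. Over the 43 closed by Mef2c it was 20.7 CPM in M cells, against 64.3 CPM in control cells (ratio 0.40). Over the 132 closed by Tbx5 it was 16.9 CPM in T cells, against 52.4 CPM in control cells (ratio 0.38). Across all 7440 regions with the control level, the median ratio was 0.915 with G, 0.914 with M and 0.844 with T, and it was 0.908 in GM, 0.884 in GT, 0.834 in MT and 0.800 in GMT. All 3 libraries of the closing factor lay below all 3 control libraries at 15 of 16 regions closed by Gata4 (21.7% of the 7440), at 43 of 43 closed by Mef2c (29.7%) and at 128 of 132 closed by Tbx5 (33.9%). The rule fixed most of that order.

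The lowest ratio of any member belonged to chr4:119458919-119459319, a region closed by Tbx5 with a ratio of 0.17. It had 0, 2.96 and 5.44 CPM in the T libraries, against 41.5, 37.4 and 44.0 CPM in the control libraries. The other 2 lowest of that class were chr2:113461877-113462192 (0.23) and chrX:5935169-5935415 (0.25). At the chr2 region the T libraries had 15.7, 13.3 and 63.4 CPM, against 129, 191 and 139 CPM in the control libraries, so a single T library was well above the other 2. The lowest of the Mef2c class was chr9:14725708-14726330 (0.23), with 3.20, 6.79 and 13.2 CPM in the M libraries, against 56.8, 41.2 and 52.3 CPM in the control libraries. It was followed by chr9:75197813-75198019 (0.27) and chr9:37037355-37037609 (0.28). The lowest of the Gata4 class was chr6:100888989-100889331 (0.28), with 10.7, 36.3 and 13.0 CPM in the G libraries, against 105, 78.6 and 73.0 CPM in the control libraries. Next came chr2:52732390-52732650 (0.29) and chr3:83103635-83104130 (0.31).

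The edge of the classes is not a gap. The members nearest to 0.45 had ratios of 0.44 and 0.43 for Gata4 (chr13:74501374-74501649 and chr11:65029044-65029377), 0.447 and 0.445 for Mef2c (chr1:173354946-173355518 and chr5:22928815-22929131) and 0.4492 and 0.4488 for Tbx5 (chr7:53386592-53386841 and chr16:93109991-93110267). The nearest regions outside had 0.4502 and 0.4525 for Gata4 (chr15:96560445-96560645 and chr9:14400856-14401108), 0.4508 and 0.4523 for Mef2c (chr18:60921773-60922306 and chr8:8562330-8562537), and 0.4505 and 0.4515 for Tbx5 (chr9:66364239-66364573 and chr2:141413124-141413326). Between 0.45 and 0.55 lay another 31, 69 and 93 regions that met every other criterion for Gata4, Mef2c and Tbx5. Class sizes also depended on single libraries. Without G replicate 2, the shallowest G library at 386147 counts, 49 regions instead of 16 were closed by Gata4. Without M replicate 3 the Mef2c class had 66 regions, and the Tbx5 class had 77 without T replicate 2 and 214 without T replicate 3. The class sizes are given with no test.

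**Figure D1:**
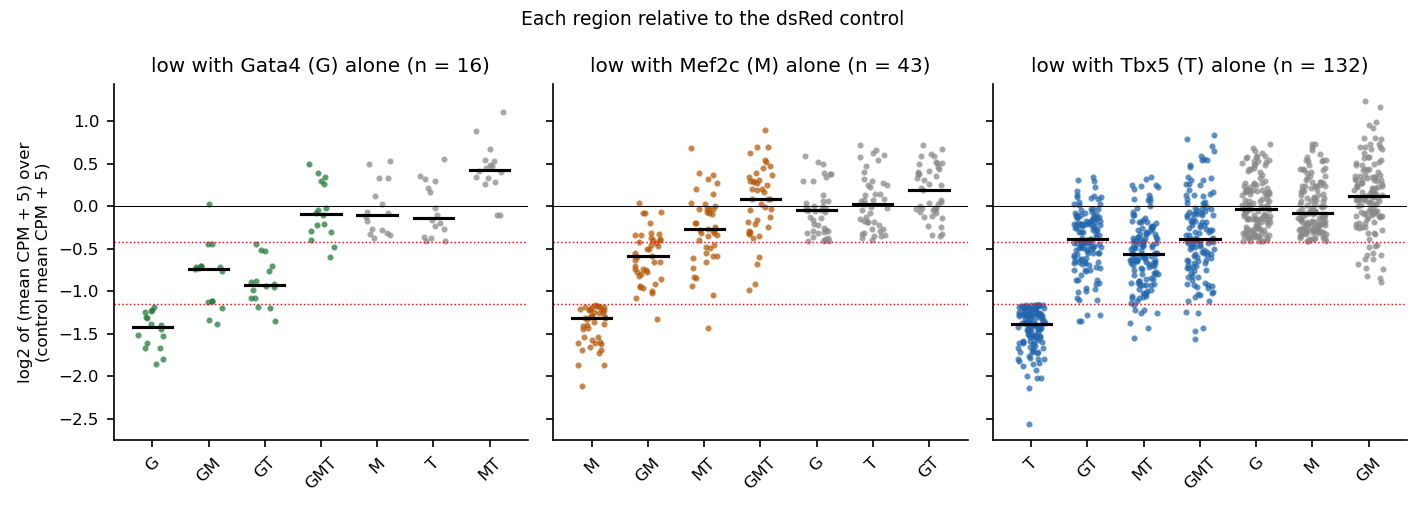
Each point is a region; the vertical axis is the log2 ratio of its group mean to the dsRed control mean, 5 CPM added to both, for 16, 43 and 132 regions. Coloured groups were given the closing factor, black bars are medians, and the dotted lines are the rule's ratios of 0.45 and 0.75. The single-factor columns are set by the rule, which chose that of the closing factor for low values. The medians of the pairs and GMT lie above that of the closing factor's column, on either side of 0.

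Width and position were not used by the rule. Median width was 308.5 bp for the Gata4 class, 380 bp for the Mef2c class and 299.5 bp for the Tbx5 class, against 275 bp for all regions with the control level and 234 bp for all regions of the table. Regions of at least 500 bp made up 12 of 43 in the Mef2c class (27.9%), 14 of 132 in the Tbx5 class (10.6%) and 1 of 16 in the Gata4 class, against 8.86% of the 7440. Members lay on 20 chromosomes, and made up 1.59% to 3.59% of the regions with the control level on each. The 3 on chromosome X, 2.42% of the 124 there, were all closed by Tbx5. Neighbours were rare. Only 3 pairs of members were within 100 kb of each other. A pair closed by Mef2c lay 26975 bp apart on chromosome 15, a pair closed by Tbx5 47405 bp apart on chromosome 19, and on chromosome 11 a region closed by Mef2c lay 16078 bp from one closed by Tbx5. No test was made of these counts.

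The next question was whether the closing factor left the same mark when it was given with other factors. Ratios of the pairs and of GMT to the control share the control libraries with the rule, so they are values side by side and not tests. The rule also chose the closing factor's libraries for low values, so groups it did not use can lie closer to the control through that choice. How much of a difference from the closing factor alone comes from this was not tested. The 12 libraries of GM, GT, MT and GMT did not enter the rule and all had the inhibitors, so tests were made among them alone. For each factor, the mean of the 3 combinations with it was set against the pair without it. The pairs with the factor also lack a factor that this pair has, so this comparison is not of the factor alone. A level below this pair need not be below the control. GMT was also set against the same pair, which asks what the factor adds to the other 2. Both were tested at 22410 regions with edgeR's quasi-likelihood test with Benjamini-Hochberg adjustment over all of them, and a region was called at an adjusted p under 0.05. All 191 members were among the regions tested. The 2 comparisons of a factor share libraries and are not separate evidence.

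At regions closed by Gata4, both pairs with Gata4 were low, and GMT was near the control in the median ratio, with libraries that differed. The median over the 16 regions was 10.7, 28.5 and 11 CPM in the G libraries, 15.7, 35.6 and 24 CPM in GM, and 13.0, 20.3 and 40.0 CPM in GT. It was 64.2, 36.1 and 47.7 CPM in GMT, against 64.2, 65.5 and 88.7 CPM in MT and 51.3, 53.6 and 46.5 CPM in control libraries. Every GM and GT library was thus below every control library, whereas GMT overlapped the control. With M alone it was 60.8, 47.5 and 58.1 CPM, and with T alone 45.7, 42.1 and 58.0 CPM, as the rule requires. The median ratio to the control was 0.60 in GM, 0.53 in GT, 0.94 in GMT and 1.35 in MT.

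A ratio of 0.45 or less was kept by 3 of 16 regions in GM (6.01% of the 7440) and 3 in GT (8.44%), and by none in GMT (9.17%) or MT (9.4%). A ratio of 0.75 or more was found at 1 of 16 in GM (71.3%), 0 in GT (69.3%), 14 in GMT (58.4%) and 16 in MT (63.7%). MT, the pair without Gata4, had the highest mean of the 4 combinations at 15 of 16 regions (20.0%), against 3 of 43 regions closed by Mef2c and 4 of 132 closed by Tbx5. All 9 combination libraries with Gata4 lay below all 3 MT libraries at 7 of 16 regions, which 1.01% of the 7440 did.

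In the test, combinations with Gata4 were lower than MT at 11 of the 16 regions and higher at 0. Here the median ratio to the control was 1.35 in MT and 0.94 in GMT, so lower than MT does not mean lower than the control. Of all regions tested, 6.58% were called lower and 3.35% higher, and of those with the control level 2.42% were called lower. A negative log2 fold change was found at 16 of 16, which 42.6% of regions with the control level were. Its median was -1.25, with a range of -1.60 to -0.50, against 0.06 over regions with the control level. Without GT replicate 1 the count was 11, without GMT replicate 1 it was 13 and without both it was 15. Of all regions 7.7%, 6.76% and 9.71% were called lower in these runs. The count fell to 7 without GM replicate 3 or GMT replicate 2, to 5 without MT replicate 1 and to 2 without MT replicate 2. Calls over all regions fell as well, from 1474 to 1091, 1245, 404 and 469 in that order. The median log2 fold change stayed between -1.43 and -1.11 in every alternative run.

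The addition of Gata4 to Mef2c and Tbx5 gave no call. GMT was lower than MT at 0 of the 16 regions and higher at 0 by edgeR, and lower at 0 by DESeq2. At an unadjusted p under 0.05 it was lower at 3, and at 353 of the 7437 tested regions with the control level. The background was low as well, with 0.00892% of all regions called lower and 0.0892% higher, and with 0.0% lower and 0.0538% higher among regions with the control level. GMT had the lower fitted level at 15 of 16, against 60.4% of regions with the control level, and the median log2 fold change was -0.59. The addition of Mef2c to Gata4 and Tbx5 (GMT against GT) had a median of 0.86 at the same 16 regions, and the addition of Tbx5 to Gata4 and Mef2c (GMT against GM) a median of 0.89, with 1 of 16 negative in each. Without GT replicate 1 these medians were 0.68 and 0.93, without GMT replicate 1 they were 0.73 and 0.51, and without both they were 0.55 and 0.55. Gata4's own addition gave 2 calls without both libraries, when 1.33% of all regions were called lower.

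**Figure D2:**
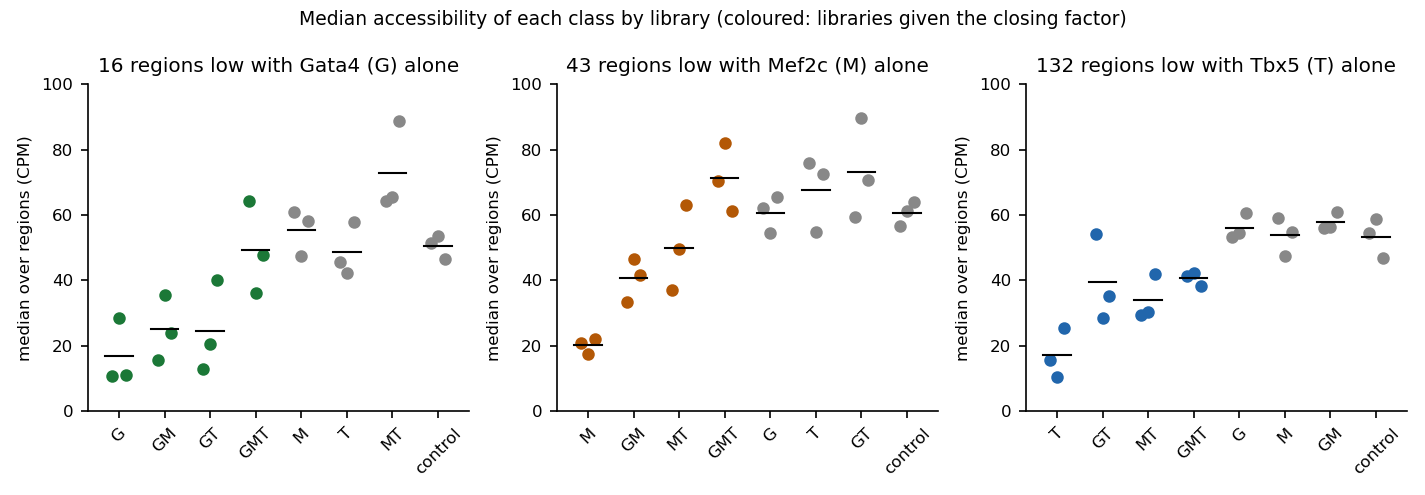
Each point is a library and shows the median CPM over the regions of a class; bars are the mean of 3 libraries. Coloured groups were given the closing factor and grey ones were not: GM and GT libraries lie below the control for Gata4, GM lies below the control for Mef2c, and GT replicate 1 at 54.3 CPM stands above the other libraries with Tbx5.

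At regions closed by Mef2c, GM was below the control but not as low as M alone, which the rule chose for low values. MT replicates 1 and 2 were also below every control library, while MT replicate 3 and the GMT libraries were not. The median over the 43 regions was 20.8, 17.4 and 21.9 CPM in the M libraries, 33.4, 46.7 and 41.7 CPM in GM, and 37.0, 49.5 and 63.1 CPM in MT. It was 70.4, 82.0 and 61.4 CPM in GMT, against 59.3, 89.8 and 70.6 CPM in GT and 56.8, 61.1 and 63.9 CPM in control libraries. The GM libraries were all below the control libraries, MT overlapped the control through replicate 3 alone, and GMT overlapped both GT and the control. G alone had 62.3, 54.4 and 65.4 CPM, and T alone 75.8, 54.7 and 72.5 CPM. The median ratio to the control was 0.67 in GM, 0.83 in MT, 1.06 in GMT and 1.14 in GT. Over all 7440 regions it was 0.908, 0.834, 0.800 and 0.884 in that order, so the MT ratio was near that of all regions.

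A ratio of 0.45 or less was kept by 1 of 43 regions in GM (6.01% of the 7440) and by 1 in MT (9.4%). None kept it in GMT (9.17%) or GT (8.44%). A ratio of 0.75 or more was found at 13 of 43 in GM (71.3% of the 7440), 29 in MT (63.7%), 39 in GMT (58.4%) and 43 in GT (69.3%). The 67.4% of the class in MT was near the share of the 7440. GT, the pair without Mef2c, had the highest mean of the combinations at 23 of 43 regions (26.3% of the 7440). All 9 combination libraries with Mef2c lay below all 3 GT libraries at 5 of 43 (0.739%).

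In the test, combinations with Mef2c were lower than GT at 5 of 43 regions and higher at 0. Over all regions 3.78% were called lower and 5.34% higher, and 2.0% were called lower among those with the control level. At an unadjusted p under 0.05, 20 of 43 were lower, against 680 of the 7437 tested regions with the control level. Fitted levels were lower with Mef2c at 43 of 43, against 68.9% of regions with the control level. The median log2 fold change was -0.59 and the range -1.12 to -0.06, against a median of -0.14 over regions with the control level. Without GT replicate 1 the count was 9, without GMT replicate 1 it was 4 and without both it was 13. Of all regions 4.38%, 4.09% and 5.25% were called lower in these runs. The count was 2 without GM replicate 1, MT replicate 1, MT replicate 2 or GMT replicate 3, 3 without GM replicate 2 or GT replicate 3, and 0 without GT replicate 2. Shares of all regions in those runs are not given here. DESeq2 called 3, and 2.86% of all regions. The median stayed between -0.76 and -0.28 in every alternative.

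GMT was lower than GT at 0 of the 43 regions and higher at 0 by edgeR, against 0.558% lower and 3.11% higher over all regions, and 0.713% lower and 1.33% higher among those with the control level. DESeq2 also called 0 lower. At an unadjusted p under 0.05 in edgeR 3 of 43 were lower, against 852 of the 7437 tested regions with the control level, a larger share. The log2 fold change was negative at 35 of 43, near the 71.1% of regions with the control level. The median of -0.19 became 0.13 without GT replicate 2. Without GT replicate 1 and GMT replicate 1, 1 region was called lower (0.77% of all regions), and without replicate 1 of all groups 3 were. The addition of Tbx5 to GM had a median of 0.66 at the 43 regions, and the addition of Gata4 to MT a median of 0.41, and without both GT replicate 1 and GMT replicate 1 these were 0.72 and 0.39.

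At regions closed by Tbx5, T alone was chosen by the rule for low values. Every combination with Tbx5 was lower than the control in the median, but none as low as T alone. The median of all regions with the control level was also below the control in these groups, and in GMT it was near that of the class. The median over the 132 regions was 15.7, 10.3 and 25.4 CPM in the T libraries, 54.3, 28.4 and 35.3 CPM in GT, and 29.3, 30.3 and 42.0 CPM in MT. It was 41.4, 42.2 and 38.2 CPM in GMT, against 56.1, 56.5 and 61.0 CPM in GM and 54.6, 58.6 and 46.9 CPM in control libraries. All MT and GMT libraries lay below all control and all GM libraries. In GT the second and the third library did so, and the first, the library close to the G libraries over all regions, did not. G alone had 53.4, 54.4 and 60.6 CPM, and M alone 59.2, 47.5 and 54.8 CPM. The median ratio to the control was 0.76 in GT, 0.68 in MT, 0.77 in GMT and 1.08 in GM, against 0.884, 0.834, 0.800 and 0.908 over all 7440 regions.

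A ratio of 0.45 or less was kept by 4 of 132 regions in GT, 8 in MT and 5 in GMT, and by 0 in GM. These shares are smaller than those of all regions with the control level, given above as 8.44%, 9.4% and 9.17%. A ratio of 0.75 or more was found at 70 of 132 in GT (69.3% of the 7440), 47 in MT (63.7%), 74 in GMT (58.4%) and 118 in GM (71.3%). The 56.1% of the class in GMT was near the share of the 7440. GM, the pair without Tbx5, had the highest mean of the combinations at 116 of 132 regions (39.6% of the 7440). All 9 combination libraries with Tbx5 lay below all 3 GM libraries at 14 of 132 (1.47%).

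In the test, combinations with Tbx5 were lower than GM at 24 of 132 regions and higher at 0. Over all regions 3.86% were called lower and 8.02% higher, and 2.14% were called lower among those with the control level. At an unadjusted p under 0.05, 62 were lower, against 684 of the 7437 tested regions with the control level. Fitted levels were lower with Tbx5 at 131 of 132, against 71.6% of regions with the control level, and the exception was chr5:135998267-135998770 with a log2 fold change of 0.03. The median log2 fold change was -0.64 and the range -1.93 to 0.03, against a median of -0.18 over regions with the control level.

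The number of calls moved much more with single libraries than the median did. Without GT replicate 1 the 24 calls became 52, without GMT replicate 1 they became 31 and without both they became 62. Of all regions, 7.43%, 4.77% and 8.95% were called lower in these runs, against 3.86% with all 12 libraries. The count was 14 without GM replicate 2 or GMT replicate 2, 11 without GT replicate 2 or MT replicate 1, 8 without MT replicate 2, 7 without GT replicate 3, 5 without GMT replicate 3, 4 without GM replicate 1 and 0 without GM replicate 3. Shares of all regions in those runs are not given here. The median stayed between -0.76 and -0.53 in every alternative. The median control level was 42.5 CPM at the 24 called regions and 54.9 CPM at the 108 others. Median standard errors were 0.31 and 0.33. The control libraries are not in this test. In the 12 libraries tested, the median of the mean counts was nearly equal at called and other regions of this class. It was higher at called regions for Mef2c (62.3 against 42.2 counts) and for Gata4 (36.25 against 29.5 counts). Whether counts decided the calls was not tested.

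With all 12 libraries, the addition of Tbx5 to the other 2 factors gave calls at its own regions, and the additions of Gata4 and Mef2c gave 0 at theirs. GMT was lower than GM at 5 of 132 regions and higher at 0, against 1.06% lower and 7.96% higher over all regions, and 1.61% lower and 2.6% higher among those with the control level. At an unadjusted p under 0.05, 30 were lower, against 988 of the 7437 tested regions with the control level. DESeq2 called 7 members lower, and 1.77% of the regions with the control level. The log2 fold change was negative at 127 of 132, against 73.0% of regions with the control level, and its median was -0.56. The count was 10 without GT replicate 1 or GMT replicate 1 and 19 without both, while the share of all regions called lower was 2.02%, 2.49% and 4.28%. The median was -0.52, -0.63 and -0.59. It was 3 without GM replicate 2, GT replicate 3 or MT replicate 3, 1 without MT replicate 2, and 0 without GM replicate 1, GM replicate 3, GMT replicate 2 or GMT replicate 3. Whether the classes differ in this was not tested. At the same 132 regions GMT over GT had a median of -0.06, which was 0.31 without GT replicate 1, -0.16 without GMT replicate 1 and 0.20 without both. GMT over MT had a median of 0.24, and 0.08 without both.

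**Figure D3:**
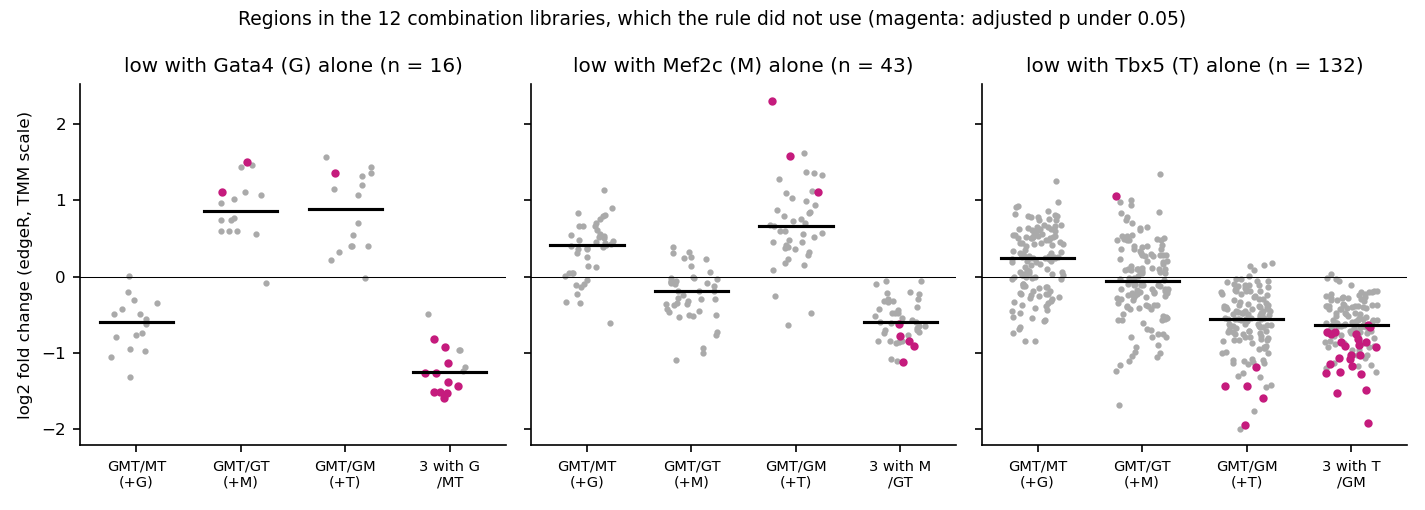
Points are regions of a class, and the vertical axis is the edgeR log2 fold change of GMT over each pair and, in the last column, of the 3 combinations with the closing factor over the pair without it. Magenta points passed the adjusted p threshold of 0.05, and bars are medians, which in the last column were -1.25 for Gata4, -0.59 for Mef2c and -0.64 for Tbx5.

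GMT was below GM at 5 of the regions closed by Tbx5. At chr2:74813205-74813410 the GMT libraries had 8.29, 7.34 and 14.2 CPM, against 30.2, 31.9 and 57.2 CPM in the GM libraries, which did not overlap. T alone had 5.23, 5.91 and 18.1 CPM there, and the control 37.1, 34.9 and 33.2 CPM. Its log2 fold change of GMT over GM was -1.96 ± 0.54 (SE; adjusted p = 0.027). At chr9:66893211-66893416 the GMT libraries had 8.29, 18.3 and 12.3 CPM, against 34.0, 34.4 and 54.1 CPM in GM libraries, again without overlap, with a log2 fold change of -1.60 ± 0.48 (adjusted p = 0.0422). The other 3 were chr11:80415636-80415968 (-1.44 ± 0.45, adjusted p = 0.049), chr4:151474782-151475036 (-1.43 ± 0.44, adjusted p = 0.0443) and chr5:104204037-104204283 (-1.18 ± 0.36, adjusted p = 0.0431), the last of which was named after its value was seen. The first 4 all lost the call without GM replicate 1, GM replicate 3, GMT replicate 2 or GMT replicate 3, and their signs did not change in any alternative. Of 25 alternatives, 6, 11, 14 and 13 ended these 4 calls in the order given, with adjusted p of up to 0.353, 0.484, 0.583 and 0.558.

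The called regions with the lowest fold changes in the average of combinations, other than those already named, are given library by library. For Gata4 the lowest was chr2:52732390-52732650, with 9.62, 14.7 and 7.73 CPM in GM, 19.8, 11 and 21.2 CPM in GT and 37.3, 20.8 and 26.4 CPM in GMT, against 46.9, 65.5 and 39.7 CPM in MT. All 9 libraries with Gata4 lay below the 3 without it. The log2 fold change was -1.60 ± 0.33 (SE; adjusted p = 0.00435). At chr12:28075329-28075532 GM had 14.1, 27.0 and 20.1 CPM, GT 12.3, 31.4 and 28.2 CPM and GMT 66.3, 45.3 and 48.1 CPM, against 75.1, 110 and 67.7 CPM in MT (-1.53 ± 0.30, adjusted p = 0.00325). All GMT libraries lay below MT there and above all GM and GT libraries. Without MT replicate 2 both regions missed the threshold, with adjusted p of 0.061 and 0.059.

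For Mef2c, chr10:76993744-76994181 had 56.5, 31.9 and 27.8 CPM in GM, 50.4, 31.9 and 63.1 CPM in MT and 58.0, 128 and 82.1 CPM in GMT, against 119, 124 and 113 CPM in GT. GM and MT lay below GT in every library and GMT did not. Its log2 fold change was -1.12 ± 0.27 (adjusted p = 0.0127). At chr1:173354946-173355518 GM had 71.9, 125 and 150 CPM, MT 58.1, 105 and 128 CPM and GMT 128, 138 and 109 CPM, against 188, 224 and 186 CPM in GT, with no overlap (-0.91 ± 0.22, adjusted p = 0.0148). GT was above the control there, whose libraries had 96.1, 136 and 136 CPM. Without GT replicate 2 both missed the threshold, with adjusted p of 0.073 and 0.12.

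For Tbx5, chr1:156625656-156625881 had 48.1, 11.9 and 21.2 CPM in GT, 2.93, 12.8 and 23.4 CPM in MT and 29.0, 15.9 and 21.7 CPM in GMT, against 56.5, 68.8 and 85.0 CPM in GM. All 9 libraries with Tbx5 lay below the 3 GM libraries, and GT replicate 1 was the highest of the 9. The log2 fold change was -1.93 ± 0.41 (adjusted p = 0.00688). At chr17:45157302-45157544 GT had 18.5, 6.78 and 16.5 CPM, MT 10.6, 17.6 and 9.34 CPM and GMT 41.4, 14.7 and 13.2 CPM, against 46.2, 34.4 and 46.4 CPM in GM (-1.53 ± 0.38, adjusted p = 0.0132). The GMT library that reached GM was replicate 1, the shallowest of all. The first region missed the threshold without GM replicate 3 (adjusted p = 0.068), and the second without GM replicate 1 (0.092) or GM replicate 3 (0.083).

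**Figure D4:**
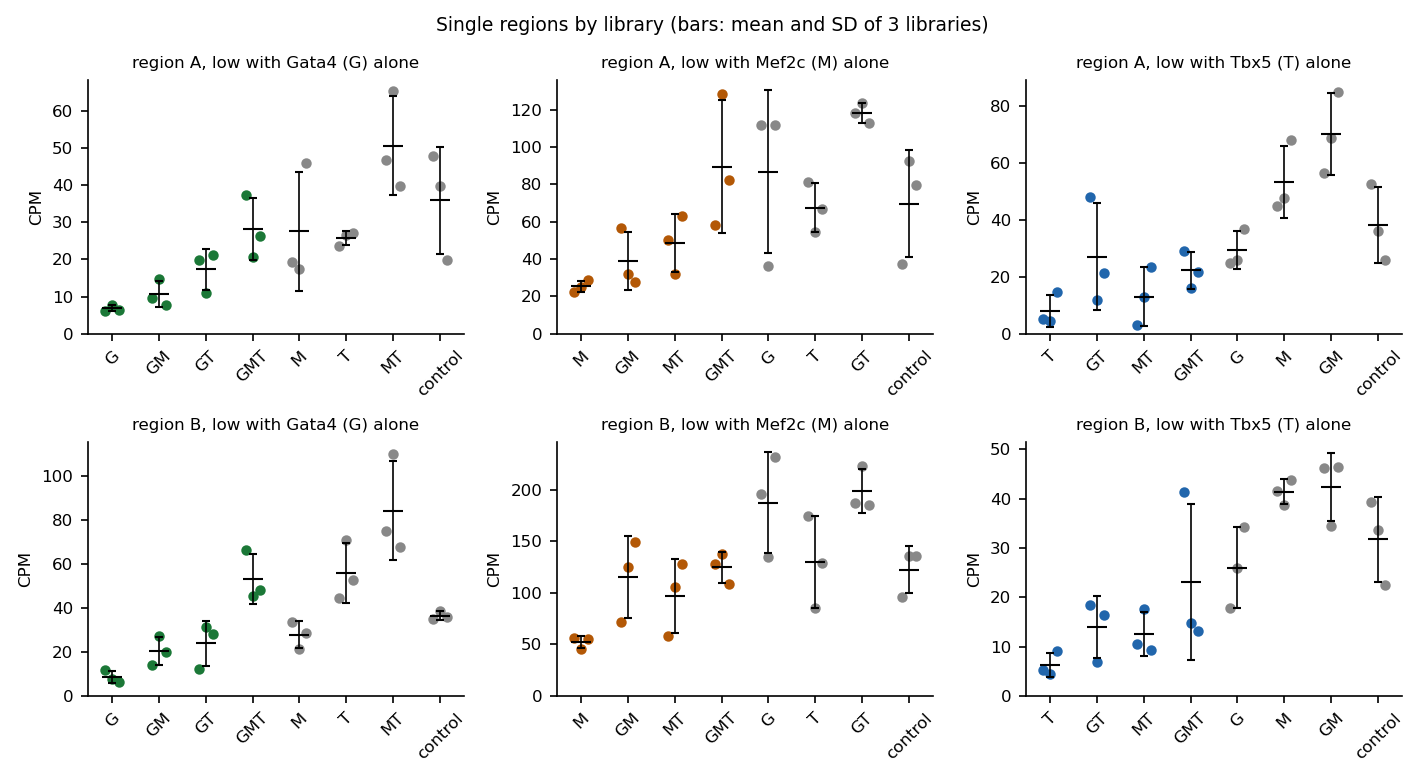
CPM of 6 regions in each library, with mean and SD of 3 libraries; coloured groups were given the closing factor, grey ones were not. Region A and region B are, for Gata4, those on chromosomes 2 and 12, for Mef2c those on chromosomes 10 and 1, and for Tbx5 those on chromosomes 1 and 17; the pair without the factor has the highest mean of the 4 combinations in all 6.

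GMT was higher than a pair that lacks another factor at some closed regions. Among the 16 regions closed by Gata4, GMT was higher than GT, which differs by Mef2c, at 2: chr6:100888989-100889331 (1.51 ± 0.41, SE; adjusted p = 0.0461) and chr8:67395787-67396069 (1.11 ± 0.31, adjusted p = 0.0475). GMT was higher than GM, which differs by Tbx5, at chr12:28075329-28075532 (1.36 ± 0.43, adjusted p = 0.0498). Without GT replicate 1 the count of GMT over GT was 0, as it was without both GT replicate 1 and GMT replicate 1, and without GMT replicate 1 it was 3. Of all regions 2.07%, 4.04% and 4.3% were higher in these runs. The count of GMT over GM was 4 without GT replicate 1, 1 without GMT replicate 1 and 5 without both, against 11.9%, 10.1% and 14.5% of all regions. The chr6 region, the lowest of its class with Gata4 alone, had 91.1, 110 and 118 CPM in GMT, against 13.6, 36.4 and 63.5 CPM in GT.

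Among the 43 regions closed by Mef2c, GMT was higher than GM at 3, with 8 by DESeq2, 11 without GT replicate 1, 5 without GMT replicate 1 and 12 without both. Over all regions 8.19% were higher by DESeq2, and 11.9%, 10.1% and 14.5% in these runs. The 3 were chr5:53482458-53482662 (2.31 ± 0.57, adjusted p = 0.0156), chr18:16939099-16939535 (1.58 ± 0.37, adjusted p = 0.0129) and chr4:46374032-46374558 (1.11 ± 0.32, adjusted p = 0.0313). The chr5 region had 66.3, 52.6 and 29.3 CPM in GMT, against 9.62, 9.82 and 7.73 CPM in GM, with M alone at 3.20, 6.79 and 17.5 CPM. No library of GMT overlapped GM there. Among the 132 closed by Tbx5, GMT was higher than GT at chr3:151805873-151806601 (1.05 ± 0.28, adjusted p = 0.0365). These 7 results were named after their values were seen. Each lost its call without GMT replicate 2 and without at least 1 library of the pair it was compared with. Between 5 and 15 of 25 alternatives ended a call, with the highest adjusted p of each region between 0.275 and 0.419. Of all regions, 3.11% were higher in GMT than in GT and 7.96% higher in GMT than in GM, and of those with the control level 1.33% and 2.6% were. The Tbx5 class, with 0.758% over GT, was below both shares. Over GM, the Mef2c class with 6.98% and the Gata4 class with 6.25% were below the share of all regions and above that with the control level. Only the Gata4 class over GT, with 12.5%, was above both. That share is 2 of 16 regions, and it was 0 without GT replicate 1.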

How the data were processed

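ATAC-seq libraries of 24 samples in 8 groups were counted by the authors. The values they deposited are whole counts per region and library, with no normalisation. The submitters' processing notes name Bowtie2, Picard, featureCounts and build mm9. The definition of the regions and the unit counted (read or fragment) are not given in the sources used here. Per the labels' protocols, aliquots of 50000 cells were transposed, amplified by 12 cycles of PCR and read to 100 bp. PCR duplicates left in the counts would narrow the counting error.

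The members, lists and tests were chosen with earlier results of these data known. CPM is a count over the library's total. Counts of the 12 combination libraries were fitted in 1 model with edgeR 4.0.16 (limma 3.58.1, R 4.3.3), TMM scaling, and a robust quasi-likelihood fit, at the 22410 regions (72.7%) with a mean count of at least 5 over the 12. The square root of the common dispersion was 0.323. The SE is the size of the log2 fold change over the square root of F, and tests are two-sided. The scripts were tested on simulated data. DESeq2 1.42.0, other scalings, filters, sample sets and each library left out were alternatives. Named regions are, per class, the 3 lowest ratios, the 2 on each side of the 0.45 limit, up to 4 called lower on adding the factor, up to 2 called higher there, and up to 2 further called lower in the combinations. Others are said to be named after their values were seen. The separate cultures behind replicates are not described, so p-values cover only the variation among these libraries, which may be technical. Figures were drawn with matplotlib 3.10.9.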

Additional observations from a re-analysis of the deposited data

How the results depend on the processing

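For the comparisons of each class's own factor, the 6 medians kept their direction in every alternative run, except that the median log2 fold change of GMT over GT at regions closed by Mef2c, -0.19, was 0.13 without GT replicate 2 (-0.34 without GT replicate 1). The medians of the other additions were compared only with DESeq2 and without GT replicate 1, GMT replicate 1 or both, where that of GMT over GT at regions closed by Tbx5 changed sign. The counts of calls moved much more. Calls over all regions moved as well. In combinations with Gata4 they ran from 337 without replicate 2 of all groups to 2205 without GT replicate 1 and GMT replicate 1. The counts of members that follow are given without those shares. With GT replicate 1 and GMT replicate 1 both left out, calls lower on adding the factor numbered 2 for Gata4, 1 for Mef2c and 19 for Tbx5, and in the averages 13 for Mef2c and 62 for Tbx5. For Mef2c's 5 calls in the average, total counts alone, DESeq2, no filter and filterByExpr each gave 3, and a fit of all 24 libraries 10. For Tbx5's 5 calls on addition, loess offsets gave 8, no filter 3, all 24 libraries 9 and only the compared groups 11. For its 24 calls in the average, all 24 libraries gave 38. The fit of all 24 libraries includes those that chose the members, so it is not independent of the rule. Leaving out 1 library or 1 replicate number gave 0 to 2, 0 to 3 and 0 to 31 calls on addition, and 1 to 13, 0 to 9 and 0 to 52 in the average, for Gata4, Mef2c and Tbx5. The cause was not tested. Leaving out replicate number 2 or 3 of all groups leaves 8 libraries and gave 0 Mef2c and Tbx5 calls, while leaving out number 1 gave 47 Tbx5 calls in the average.

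Same-numbered libraries did not deviate together (correlation -0.408 to 0.452, over 0.1 in 5 of 18 pairs, with 4 of 12 libraries closest to their own number). With the replicate number as a block, Tbx5 had 1 call on addition and 15 in the average, Mef2c had 0 and 4, and Gata4 had 0 and 11. Class sizes ran from 13 to 49, 35 to 66 and 77 to 214 for Gata4, Mef2c and Tbx5 with 1 library of the rule left out. The Mef2c class had 65 regions with 0 CPM added, and also 65 with TMM scaling.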
